A study of Mus musculus with 19 samples.

Results

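The leukocyte integrins are described here as 8 integrin chain genes of white blood cells and Fermt3, the gene of the adaptor kindlin-3, measured in the mouse infrarenal aorta after elastase or saline infusion. The 9 genes were taken by name (Itgal, Itgam, Itgax, Itgad, Itgae, Itgb2, Itga4, Itgb7 and Fermt3), and each was covered by exactly 1 probe set with 1 gene symbol, out of 30142 genes compared. Mice of the inbred strain C57BL/6J, of both sexes, were operated on at 10 weeks of age. At a pressure of 120 mmHg and over 5 minutes, either saline alone (sham) or type I porcine pancreatic elastase in saline (PPE, 2.5 U/mL) was infused into the aorta, which was taken 7 days later. Elastase digests the elastic fibres of the vessel wall, and the infusion is a standard mouse model of abdominal aortic aneurysm. The labels name no transgene or mutation. There were 5 male sham, 7 male PPE, 3 female sham and 4 female PPE aortae, each from 1 mouse on 1 array (Affymetrix Clariom D), so their number limits the precision. All values are the deposited log2 intensities, on which 1 unit is a 2-fold step, and levels of different genes are not compared because each probe set has its own brightness.

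Integrins are surface receptors made of an alpha and a beta chain. On leukocytes, the beta 2 chain (Itgb2, CD18) pairs with alpha L (Itgal), alpha M (Itgam), alpha X (Itgax) or alpha D (Itgad), and these receptors bind ICAM molecules, complement fragments and fibrinogen during adhesion, migration and phagocytosis. Alpha 4 (Itga4) pairs with beta 1 or with beta 7 (Itgb7) to bind VCAM-1, fibronectin or MAdCAM-1, and alpha E (Itgae, CD103) pairs with beta 7 to bind E-cadherin. Kindlin-3 binds the beta chain tails inside the cell and, with talin, switches the receptors to their binding state.

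The arrays of the male and the female mice differed in overall brightness. Array medians, taken over 65956 probe sets, were 5.61 to 5.85 in the 12 male arrays and 6.17 to 6.31 in the 7 female ones. The sex of the mice and the processing of their arrays cannot be told apart, so PPE is compared with sham within each sex. All 8 smooth muscle genes checked for the labelled tissue lay above the array median in all 19 arrays. Male sham 4 stood apart, with a mean over 9 adipocyte genes of 12.80 against a median of 8.40 for the male sham arrays. Each array is a different mouse, and p-values measure the spread between these mice. In such bulk samples, more leukocytes and more RNA per leukocyte cannot be told apart.

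In males, all 9 genes were higher after PPE (adjusted p below 0.05 in limma over all genes), where 9.67% of all genes tested were called higher and 9.98% lower. In females, 6 of the 9 were called higher, where 2.77% of all genes were called higher and 1.45% lower, and Itgam, Itgax and Itgad did not pass. The median log2 difference of the 9 genes was 1.40 in males and 1.11 in females, beside 0.01 and −0.02 over all genes. Every PPE array lay above every sham array for 8 of the 9 genes in each sex, against 4.69% of all genes in males and 11.0% in females. The exception was Itgax in males and Itgad in females. The largest difference of the 9 in either sex was that of Itgal, and the smallest was that of Itgad.

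**Figure D1:**
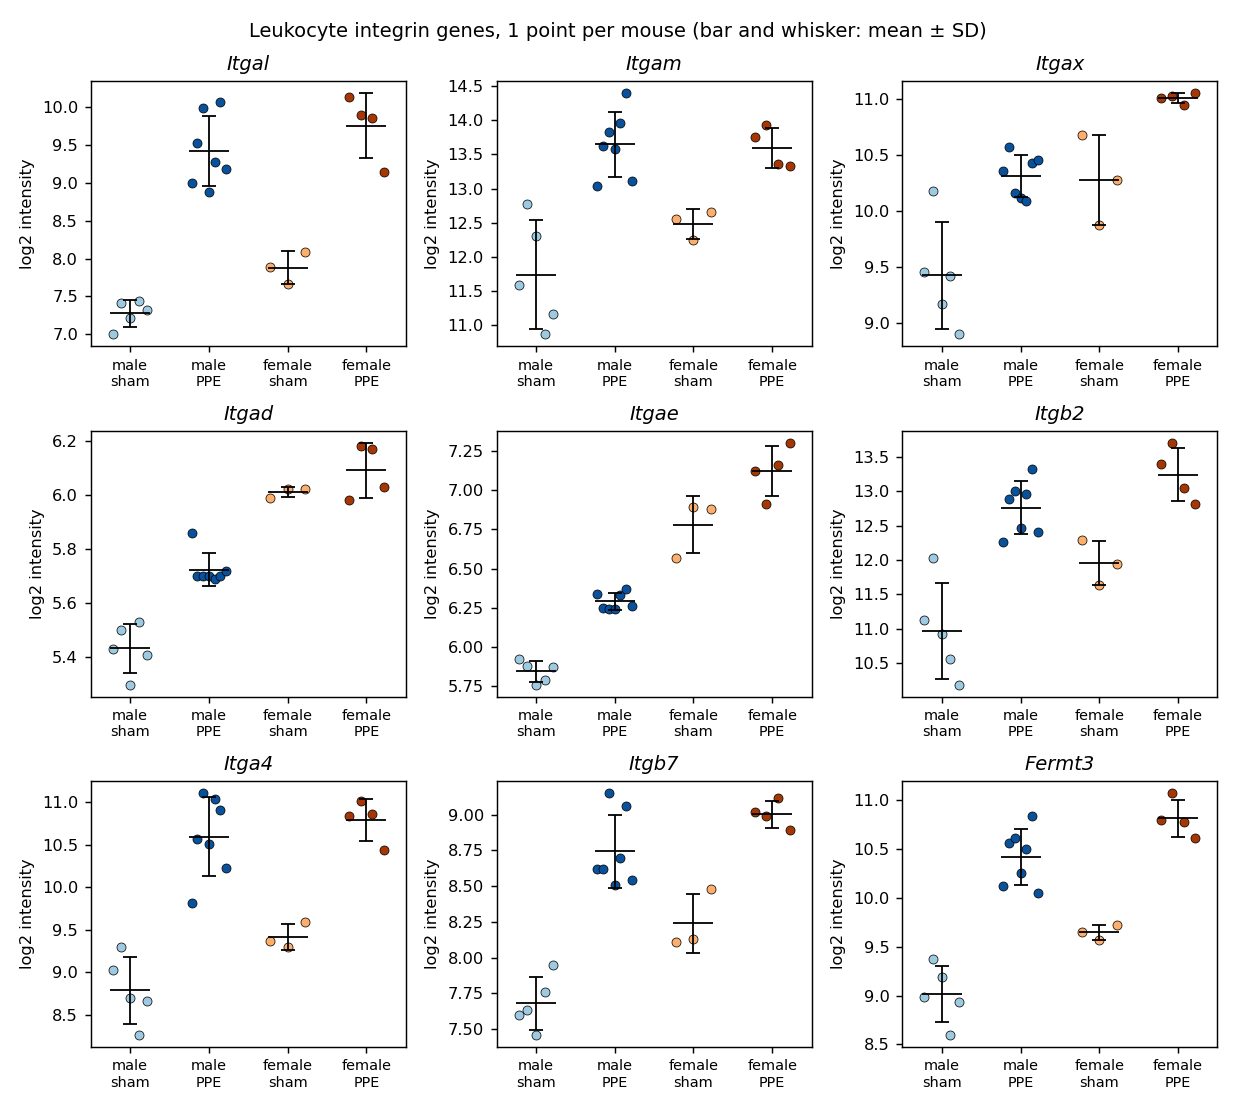
Log2 intensity (vertical axis, a separate scale for each gene) of the 9 genes in each of the 19 arrays, grouped as male sham, male PPE, female sham and female PPE along the horizontal axis, with 1 point per mouse and the mean ± SD. PPE arrays lie above the sham arrays of their sex except where Itgax overlaps in males and Itgad in females.

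Itgb2 encodes the beta 2 chain that all 4 of its alpha partners need to reach the cell surface. In male sham aortae it stood at 11.13, 12.03, 10.93, 10.56 and 10.19, and in male PPE aortae it ran from 12.27 over a median of 12.89 to 13.33. In female sham aortae it was at 12.29, 11.64 and 11.95, and in female PPE aortae at 13.40, 13.70, 13.05 and 12.82. The groups did not overlap in either sex, although male sham 2 came within 0.3 log2 units of the lowest male PPE array. Itgb2 rose by 1.79 ± 0.26 (SE) in males, a 3.47-fold change (95% interval 2.36 to 5.08, adjusted p = 7.12e-05). In females it rose by 1.28 ± 0.34, a 2.43-fold change (1.48 to 4.01, adjusted p = 0.0409). That female call was lost without any 1 of female sham 1, 2 or 3 or female PPE 1, 2 or 3 and without male PPE 2 (adjusted p from 0.0513 to 0.2). It was also lost with each array centred on its median (adjusted p = 0.0756) and after quantile normalization (adjusted p = 0.0891). The same held with a replicate block, which groups arrays of 1 sex by their number (adjusted p = 0.0859). The log2 difference stayed between 1.10 and 1.45 in all of these fits.

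Itgal encodes the alpha chain of LFA-1, which is carried by most leukocytes and is the main ICAM-1 receptor of lymphocytes. Its male sham values were 7.00, 7.42, 7.22, 7.44 and 7.32, and its male PPE values ran from 8.88 over 9.28 (median) to 10.07. Its female sham values were 7.89, 7.66 and 8.09, against 10.13, 9.89, 9.86 and 9.14 after PPE. Sham and PPE arrays were separated by more than 1 log2 unit in both sexes. Itgal rose 4.40-fold in males (log2 2.14 ± 0.20, adjusted p = 1.49e-06) and 3.67-fold in females (1.88 ± 0.27, adjusted p = 0.00209). Both calls held in each of the 19 fits that left out 1 array.

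Itgam encodes CD11b, the alpha chain of the complement receptor Mac-1 of monocytes, macrophages, neutrophils and NK cells. In male sham aortae it was at 11.58, 12.78, 12.31, 10.86 and 11.16, and in male PPE aortae it ran from 13.03 over 13.62 (median) to 14.40. In female sham aortae it was at 12.55, 12.24 and 12.65, and after PPE at 13.75, 13.93, 13.36 and 13.33. Male sham arrays spread over almost 2 log2 units, with sham 2 and 3 high and sham 4 and 5 low, yet none reached the PPE range. Itgam rose by 1.91 ± 0.29 in males (3.76-fold, adjusted p = 0.000103) and by 2.17 ± 0.27 without male sham 2. In females the difference was 1.11 ± 0.38 with a 95% interval of 0.32 to 1.91, and it did not pass over all genes (adjusted p = 0.123). When only the 2 female groups were fitted, so that the wide male sham spread no longer entered the variance, the female difference had an SE of 0.17 and adjusted p = 0.0127.

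Itgax encodes CD11c, the alpha chain typical of dendritic cells and also carried by some macrophages. Male sham aortae gave 9.46, 10.18, 9.17, 9.42 and 8.90, and male PPE aortae ran from 10.09 over 10.36 (median) to 10.57, so male sham 2 lay within the PPE range. Female sham aortae gave 10.68, 9.88 and 10.28, and the 4 female PPE aortae lay close together at 11.01, 11.03, 10.95 and 11.05. Itgax rose by 0.89 ± 0.17 in males (1.85-fold, adjusted p = 0.000993), and by 1.08 ± 0.14 without male sham 2. The female difference was 0.73 ± 0.22 (95% interval 0.26 to 1.20, adjusted p = 0.0806). It passed without male sham 2 (adjusted p = 0.0205) or male sham 5 (adjusted p = 0.05 after rounding) and when only the female groups were fitted (adjusted p = 0.0429).

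Itgad encodes CD11d, an alpha chain of macrophage subsets, and its probe set was dim. It lay above the median of its array in 7 of 19 arrays, all of them male PPE, while Itgae did so in 18 and the other 7 genes in all 19. Male sham values of Itgad were 5.43, 5.50, 5.30, 5.53 and 5.41, and male PPE values ran from 5.69 over 5.70 (median) to 5.86. In females the values were 5.99, 6.02 and 6.02 in sham and 5.98, 6.18, 6.17 and 6.03 after PPE, which overlap. The male rise was 0.29 ± 0.05 (1.22-fold, adjusted p = 0.000756), and the female difference of 0.08 ± 0.07 had a 95% interval of −0.07 to 0.23 (adjusted p = 0.728). The gene overlaps the transcript 4931431B13Rik in the RefSeq annotation, whose own probe set did not pass in males (log2 difference 0.15, adjusted p = 0.127).

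**Figure D2:**
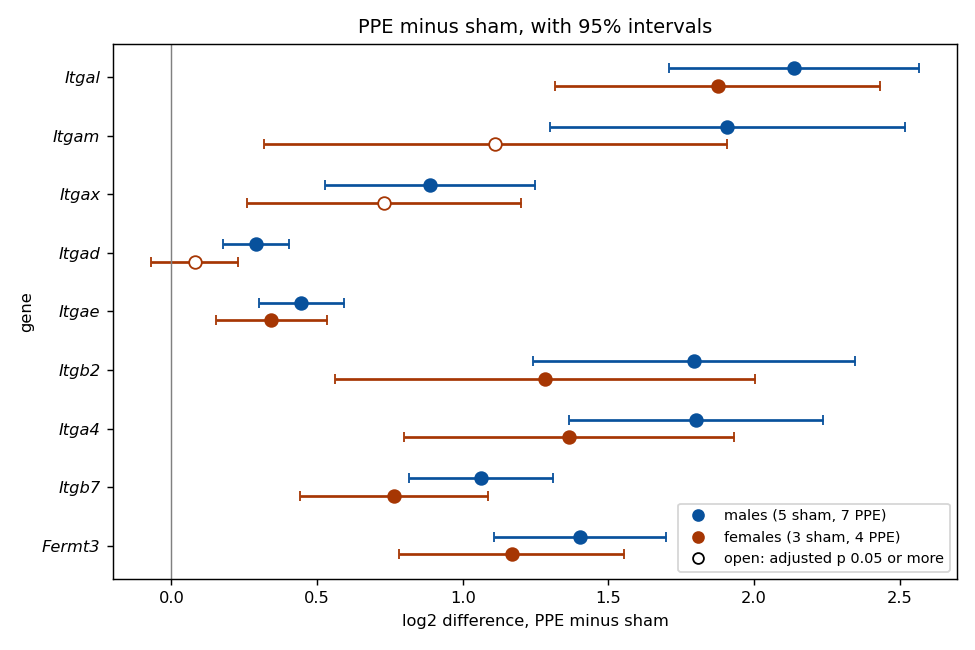
Log2 difference PPE minus sham (horizontal axis) for each of the 9 genes (vertical axis), males in blue and females in brown, with 95% intervals from limma and open symbols for an adjusted p of 0.05 or more. Itgal shows the largest difference in both sexes (2.14 and 1.88) and Itgad the smallest (0.29 and 0.08).

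Itga4 encodes the alpha 4 chain, used by monocytes and lymphocytes to bind VCAM-1 and fibronectin. It stood at 9.03, 9.30, 8.70, 8.27 and 8.66 in male sham aortae and ran from 9.81 over 10.56 (median) to 11.10 in male PPE aortae. Female sham values were 9.37, 9.30 and 9.59, and female PPE values were 10.84, 11.01, 10.86 and 10.43. The groups were apart in both sexes, with male PPE 1 and female PPE 4 lowest among the PPE arrays. Itga4 rose by 1.80 ± 0.21 in males (3.48-fold, adjusted p = 6.97e-06) and by 1.37 ± 0.27 in females (2.58-fold, adjusted p = 0.00833). The female call was lost without female sham 2 (log2 difference 1.31, adjusted p = 0.0534) and with the replicate block (1.48, adjusted p = 0.0516).

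Itgb7 encodes the beta 7 chain, the partner of alpha 4 in gut homing and of alpha E in epithelial retention. Male sham values were 7.60, 7.63, 7.46, 7.76 and 7.95, and male PPE values ran from 8.51 over 8.62 (median) to 9.15. Female sham values were 8.11, 8.13 and 8.48, against 9.02, 8.99, 9.12 and 8.89 after PPE. No sham array reached a PPE array of its sex. Itgb7 rose 2.09-fold in males (log2 1.06 ± 0.12, adjusted p = 5e-06) and 1.70-fold in females (0.77 ± 0.15, adjusted p = 0.00885). The female call was lost without female sham 1 (log2 difference 0.70, adjusted p = 0.0509) or female sham 2 (0.71, adjusted p = 0.0594). It was also lost with the replicate block (0.80, adjusted p = 0.059).

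Itgae encodes alpha E, the chain of tissue-resident T cells and a subset of dendritic cells. Male sham values were 5.92, 5.88, 5.76, 5.79 and 5.87, and male PPE values ran from 6.24 over 6.26 (median) to 6.37. In females the values were 6.57, 6.89 and 6.88 in sham and 7.12, 6.91, 7.16 and 7.30 after PPE, where the highest sham array and the lowest PPE array nearly met. The difference was small in both sexes, at 0.45 ± 0.07 in males (1.36-fold, adjusted p = 0.00013) and 0.34 ± 0.09 in females (1.27-fold, adjusted p = 0.0387). The female call was lost without any 1 of female sham 1, 2 or 3 or female PPE 1, 3 or 4 (log2 difference 0.24 to 0.40, adjusted p from 0.054 to 0.236). It was also lost when only the female groups were fitted (adjusted p = 0.152) and with the replicate block (0.28, adjusted p = 0.292).

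Fermt3 encodes kindlin-3, which is restricted to blood cells and is needed for beta 1, beta 2 and beta 3 integrins to become active. It stood at 8.99, 9.37, 9.19, 8.60 and 8.93 in male sham aortae and ran from 10.05 over 10.50 (median) to 10.84 in male PPE aortae. Female values were 9.65, 9.57 and 9.72 in sham and 10.80, 11.07, 10.78 and 10.61 after PPE. The sham and PPE ranges were well apart in both sexes. Fermt3 rose 2.64-fold in males (log2 1.40 ± 0.14, adjusted p = 2.19e-06) and 2.25-fold in females (1.17 ± 0.18, adjusted p = 0.00262), and both calls held in each of the 19 fits without 1 array. Its relatives did otherwise: Fermt2, the kindlin of muscle and connective tissue, fell by 0.88 ± 0.12 in males (adjusted p = 4e-05) and by 0.67 ± 0.16 in females (adjusted p = 0.0218). Fermt1, the epithelial kindlin, was below the array median in all 19 arrays and was not called.

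The genes of the 4 alpha partners of beta 2 lie on chromosome 7, per the RefSeq annotation of GRCm38.p6, the assembly also known as mm10. Itgam (7: 128062640 to 128118491), Itgax (128129526 to 128150657) and Itgad (128173933 to 128205504) follow each other with gaps of 11035 and 23276 bases, and Itgal (127296139 to 127335137) lies 727503 bases before Itgam. The male differences along the 3 neighbours were 1.91, 0.89 and 0.29, and the female ones 1.11, 0.73 and 0.08. None of the 7 other genes measured in this stretch was called higher, beside 9.67% of all genes in males and 2.77% in females. That count is close to the background. Trim72, on the near side of Itgam, was at 0.15 in males and −0.24 in females without a call, and Tgfb1i1, past Itgad, fell by 0.89 and 0.72 (adjusted p = 0.000322 and adjusted p = 0.0463). Armc5, between Itgad and Tgfb1i1, was at 0.09 and 0.12 without a call. The other members lie on chromosome 10 (Itgb2, 77530329 to 77565708), 11 (Itgae, 73090505 to 73147449), 2 (Itga4, 79255426 to 79333114), 15 (Itgb7, 102215994 to 102233405) and 19 (Fermt3, 6998958 to 7019469).

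To show the sequence next to the start of genes called higher in males, the 250 bases before the RefSeq start site were read for the 5 members with an entry (Itgam, Itgax, Itga4, Itgb7 and Fermt3). Shown 5′ to 3′ on each gene's own strand (GRCm38.p6) are the neighbours Itgam (chr7:128062390-128062639, plus strand) and Itgax (chr7:128129300-128129549, plus strand), then Itga4 (chr2:79255176-79255425, plus strand) and Fermt3 (chr19:7019470-7019719, minus strand). Capitals mark a match, on either strand, to GAGGAA (a core bound by PU.1, the myeloid ETS factor), TGTGGT (a core bound by RUNX factors) or GGGCGG (a core bound by Sp1), and no matches overlap. The listed starts of Itgax and Itgb7 lie within their gene spans.
Itgam: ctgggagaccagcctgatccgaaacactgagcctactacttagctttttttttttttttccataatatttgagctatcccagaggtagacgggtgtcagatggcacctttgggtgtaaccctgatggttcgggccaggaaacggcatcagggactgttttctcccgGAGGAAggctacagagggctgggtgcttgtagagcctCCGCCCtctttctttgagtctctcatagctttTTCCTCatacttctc
Itgax: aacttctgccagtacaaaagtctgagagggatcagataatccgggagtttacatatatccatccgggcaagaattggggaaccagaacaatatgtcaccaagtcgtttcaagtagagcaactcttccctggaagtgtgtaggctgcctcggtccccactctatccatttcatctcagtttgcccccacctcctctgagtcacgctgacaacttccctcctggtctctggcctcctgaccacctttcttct
Itga4: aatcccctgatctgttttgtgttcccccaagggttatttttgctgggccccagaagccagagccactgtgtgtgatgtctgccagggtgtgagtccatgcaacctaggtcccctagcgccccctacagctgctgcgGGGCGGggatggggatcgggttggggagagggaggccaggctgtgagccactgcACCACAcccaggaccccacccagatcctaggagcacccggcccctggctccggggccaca
Fermt3: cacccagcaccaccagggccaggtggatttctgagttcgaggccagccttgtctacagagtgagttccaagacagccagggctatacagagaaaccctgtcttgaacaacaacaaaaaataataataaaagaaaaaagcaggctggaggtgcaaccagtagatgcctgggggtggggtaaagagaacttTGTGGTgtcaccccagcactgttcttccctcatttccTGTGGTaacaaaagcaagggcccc

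Itgam held GAGGAA 84 bases before the start site and its reverse complement TTCCTC 15 bases before it, with the Sp1 core between them at 47 bases. It was 1 of the 5 members with a PU.1 core, a match found in 23.3% of the 32851 RefSeq windows of this length. TGTGGT or its complement ACCACA was found in Fermt3 (at 61 and 24 bases) and in Itga4 (at 60 bases), against 14.0% of all windows. The Sp1 core, in Itgam and Itga4 (at 114 bases), was found in 32.7% of all windows. Itgax and Itgb7 held none of these letters in their windows, which stand before listed starts inside their genes. The matches are descriptions of the sequence, and no binding was measured.

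The 9 genes were also set against the other leukocyte transcripts of the same arrays. Each array was rescaled by its mean over 11 genes found in leukocytes generally (Ptprc, Laptm5, Cd53, Cd52, Cd48, Cd37, Lcp1, Coro1a, Ptpn6, Arhgdib and Cytip), and the fit was repeated over all genes, of which 98.4% were then called lower after PPE in males and 93.8% in females. Ptprc itself, the gene of CD45, rose by 2.62 ± 0.23 in males and 1.80 ± 0.30 in females (adjusted p = 9.76e-07 and adjusted p = 0.00339). The 11 genes differed among themselves. In males they ran from 1.15 (Arhgdib) to 2.62 (Ptprc), with Itgal inside that range at 2.14. In females they ran from 0.70 (Laptm5) to 1.80 (Ptprc), with Itgal just above at 1.88. Itgb2, Itgam and Itga4 stayed near the leukocyte mean. Relative to it, Itgb2 was at 0.06 in males (95% interval −0.35 to 0.46) and 0.08 in females (−0.45 to 0.61). Itga4 was at 0.07 (−0.27 to 0.40) and 0.16 (−0.28 to 0.60), and Itgam at 0.17 (−0.22 to 0.57) and −0.09 (−0.60 to 0.42).

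Itgal lay above the leukocyte mean, by 0.40 ± 0.20 in males (adjusted p = 0.0483) and 0.67 ± 0.25 in females (adjusted p = 0.0149). Because nearly all genes were called lower on this scale, the adjustment hardly changed the limma p (0.0477 and 0.0136). It thus gives little protection over all genes, and the rescaling was chosen with earlier results known. Only 0.395% and 0.265% of all genes were called higher on this scale. In males the Itgal call held in 5 of 11 fits that left 1 of the 11 genes out of the mean, and in females in 11 of 11. Without male sham 4 the male value was 0.56 (adjusted p = 0.00669). Itgax and Itgb7 were below the leukocyte mean in males, at −0.85 ± 0.22 and −0.67 ± 0.19 (adjusted p = 0.000653 and adjusted p = 0.00132), and stood at −0.47 (95% interval −1.06 to 0.11) and −0.44 (−0.94 to 0.06) in females. A lower call on this scale is shared with 98.4% of all genes in males, so it does not set Itgax or Itgb7 apart. Itgad and Itgae were called lower in both sexes, as were nearly all genes on this scale, and with probe sets near the array median their size is not read. Fermt3 was at −0.33 ± 0.15 in males (adjusted p = 0.0335, and adjusted p = 0.051 without male sham 4) and at −0.04 (−0.43 to 0.36) in females. The male Fermt3 call held in 9 of the 11 fits without 1 list gene, and it too is shared with nearly all genes.

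**Figure D3:**
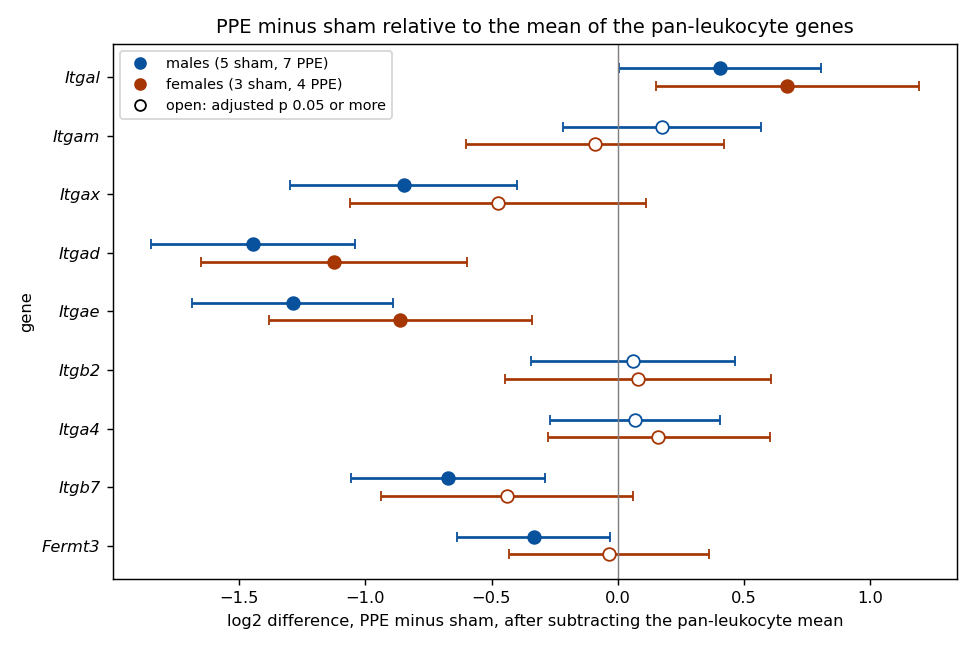
Log2 difference PPE minus sham (horizontal axis) of the 9 genes (vertical axis) after the mean of 11 pan-leukocyte genes was subtracted in each array, with 95% intervals, males in blue and females in brown, open symbols for an adjusted p of 0.05 or more. Itgb2, Itga4 and Itgam lie near 0, Itgal above it. Itgad and Itgae have dim probe sets, and their distance below 0 is not read.

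Within groups, the genes differed in how closely they followed Itgb2 from mouse to mouse. Deviations from the 4 group means over the 19 arrays correlated with those of Itgb2 at r = 0.87 for Itgam, 0.82 for Fermt3 and 0.77 for Itga4 (Spearman's rank correlation 0.87, 0.87 and 0.88). The correlation was 0.66 for Itgax, 0.52 for Itgal, 0.11 for Itgb7, −0.02 for Itgad and −0.24 for Itgae. Male sham 2 and male sham 5 lay farthest out, at 1.06 above and −0.78 below their group mean of Itgb2. Without them r was 0.80 for Itgam, 0.87 for Fermt3 and 0.80 for Itga4, but 0.27 for Itgax, whose relation rests on these 2 arrays. It was 0.67 for Itgal, 0.43 for Itgb7, −0.27 for Itgad and −0.38 for Itgae, so the low value of Itgb7 also depends on them. The 5 genes outside the members closest to Itgb2 were Mpeg1 (r = 0.94), a macrophage pore protein gene, Arhgap25 (0.93), Cybb of the phagocyte oxidase (0.92), Cd300ld (0.91) and Evl (0.90). Ptprc was at 0.68, which ranked 467 of 30141 genes. These values describe arrays that share hybridisation brightness, and they were not tested.

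Among genes that act on integrins from within the cell, several adaptors rose while talin did not pass the test. The lists used here were chosen with earlier results of these data known. They share genes: Cytip is also in the pan-leukocyte list, and Coro1a and Arhgdib are in both that list and the signalling list. Of 19 measured genes listed as acting on integrin activation, 10 rose and 2 fell in males. In females 6 rose and 1 fell (median log2 difference 0.33 in males and 0.09 in females). The list was not split into activators and inhibitors, so these counts give no direction of integrin activation. Of all genes, 9.67% rose and 9.98% fell in males, and 2.77% rose and 1.45% fell in females. The 2 that fell in males are thus close to the background. Cytip, a regulator of leukocyte adhesion, rose by 1.78 and 1.49 in males and females, Apbb1ip, the RIAM adaptor that links Rap1 to talin, by 1.18 and 0.93, Skap1, a T cell adaptor, by 0.96 and 0.82, and Rassf5, the Rap1 effector RAPL, by 0.77 and 0.52 (adjusted p at most 0.0209). Tln1, the talin gene itself, was at −0.03 and 0.02 without a call. Flna, the filamin A gene, fell by 1.35 in males (adjusted p = 5.56e-06) and was at −0.70 in females (adjusted p = 0.0544).

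Most signalling genes downstream of leukocyte integrins rose. In males 18 of 24 measured genes rose and 1 fell, and in females 14 rose and none fell (median 1.12 and 0.83). Of all genes, 9.67% rose and 9.98% fell in males, and 2.77% rose and 1.45% fell in females. Fgr, a myeloid Src family kinase, rose by 2.09 in males and 1.40 in females, Lcp2, the SLP-76 adaptor, by 2.16 and 1.41, Vav1, a signalling protein of blood cells, by 1.79 and 1.47, and Parvg, the leukocyte parvin, by 1.09 and 0.84 (adjusted p at most 0.00919). The member that fell in males was Ilk, the integrin-linked kinase gene, by 0.55 (adjusted p = 0.000217), and Parvb, another parvin, was at −0.06 and −0.04 without a call. Among 9 measured transcription regulators of these integrins 5 rose in males and 2 in females, beside 9.67% and 2.77% of all genes. Ikzf1 (Ikaros) was at 1.48 and 1.49 and Irf8 at 1.35 and 1.20. Spi1, which encodes PU.1, had no probe set with a single symbol and was not analysed here.

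Of 16 measured ligand and counter-receptor genes 3 rose and 3 fell in males, where 9.67% and 9.98% of all genes did. In females 1 rose and 2 fell, where 2.77% and 1.45% of all genes did (median 0.04 in males and −0.02 in females). Icam1, the ligand of the beta 2 integrins on endothelium and leukocytes, rose by 0.90 ± 0.15 in males (adjusted p = 0.0003) and 0.85 ± 0.20 in females (adjusted p = 0.0204). Vcam1, the ligand of alpha 4 beta 1, was at 0.46 ± 0.22 and 0.29 ± 0.29 without a call (adjusted p = 0.176 and adjusted p = 0.77). Jam2, a junction molecule bound by alpha 4 beta 1, fell by 0.77 and 1.10 (adjusted p = 0.00119 and adjusted p = 0.00521). Fn1, fibronectin, fell by 0.21 and 0.32 (adjusted p = 0.0257 and adjusted p = 0.039), from sham means of 19.03 and 18.75, where the 99th percentile of the arrays was at most 17.33. Cdh1, which encodes E-cadherin, the ligand of alpha E beta 7, rose by 0.66 ± 0.13 in males (adjusted p = 0.00149) and was at 0.37 ± 0.17 in females (adjusted p = 0.325). Of the other 5 epithelial genes none was called, Epcam, Krt18 and Krt19 lay above the array median in 0 of 19 arrays, Krt8 in 1 and Cldn4 in 6. Madcam1, the gut ligand of alpha 4 beta 7, was below the array median throughout and was not called.

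**Figure D4:**
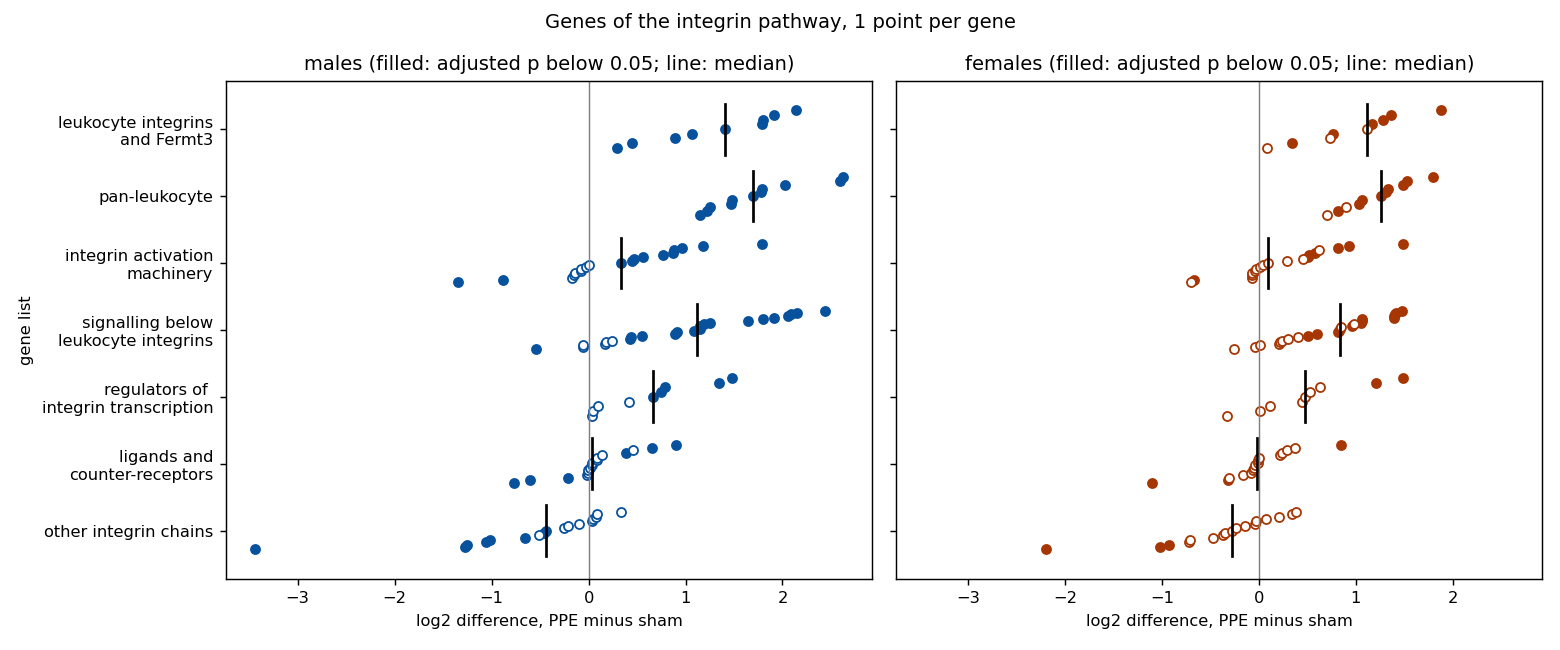
Log2 difference PPE minus sham (horizontal axis) of single genes in 7 lists (vertical axis), males on the left and females on the right, filled where the adjusted p was below 0.05, with a line at each list's median. The leukocyte integrins, the pan-leukocyte genes and the downstream signalling genes lie mostly above 0, the ligands scatter around 0 and the other integrin chains lie mostly below 0. Cytip, Coro1a and Arhgdib are each in the pan-leukocyte list and in another.

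Of 17 measured integrin chains of other cell types, 8 fell in males, where 9.98% of all genes did, and 3 fell in females, where 1.45% did (median −0.44 and −0.27). None was called higher, beside 9.67% and 2.77% of all genes, so that count is close to the background. Itga8, the alpha chain of contractile cells, fell by 3.44 and 2.19, and Itga3, a laminin receptor chain, by 1.28 and 1.02 (adjusted p at most 0.0102). Itgb1, the broadly expressed partner of alpha 4, was at −0.25 ± 0.13 in males and −0.27 ± 0.17 in females without a call. Itgb3, a chain of platelets and vascular cells, fell by 1.02 in males (adjusted p = 0.000294) and was at −0.71 in females (adjusted p = 0.0942).

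Markers of several leukocyte types moved with the integrins, and their part in the result was not tested. Beside the counts that follow, 9.67% of all genes rose in males and 2.77% in females. All 11 pan-leukocyte genes rose in males and 9 in females, and their mean per array ran from 9.21 to 10.10 in male sham, 11.04 to 11.86 in male PPE, 10.36 to 10.77 in female sham and 11.44 to 11.92 in female PPE aortae. Of 12 monocyte and macrophage genes 9 rose in males and 1, Fcgr1, in females, with array means of 10.74 to 12.14 and 12.49 to 13.18 in male sham and PPE and of 12.06 to 12.27 and 12.49 to 12.99 in the female groups. The lowest and the highest male sham array of this list were sham 4 and sham 2, as for the pan-leukocyte list. Fcgr1 rose by 3.31 and 1.86 and Ly6c2 by 2.15 in males, with 0.80 in females (adjusted p = 0.343). Mrc1 (0.74 and 0.22), Cd163 (0.075 and −0.76) and Mertk (−0.29 and −0.11) were called in neither sex. All 14 measured T and NK cell genes rose in males and 10 in females, among them Gzma (2.10 and 1.10) and Klrd1 (2.42 and 1.76). The array means of the T and NK list were 6.16 to 6.28 in male sham, 7.51 to 8.36 in male PPE, 7.12 to 7.49 in female sham and 8.13 to 8.65 in female PPE aortae.

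Of 12 neutrophil genes 9 rose in males and 5 in females, with S100a9 at 2.87 and 3.31 and Csf3r at 2.49 and 2.09. Their array means ran from 6.28 to 7.21 and from 7.57 to 8.63 in male sham and PPE, and from 6.54 to 6.79 and from 7.86 to 8.62 in the female groups. Ly6g (0.35 and 0.05), Camp (0.34 and 0.25) and Mpo (0.675 and 0.628) were called in neither sex. Of 10 dendritic cell genes 8 rose in males and 5 in females, with Ciita at 1.75 and 1.10 and Flt3 at 1.23 and 0.77. Zbtb46 (−0.05 and 0.05) and Batf3 (0.17 and 0.14) were called in neither sex. B and plasma cell genes were called in none of 8 in males and rose in 3 of 8 in females, including Cd22 at 1.38 (adjusted p = 0.0198) beside 0.45 in males (adjusted p = 0.242). Jchain, of plasma cells, was at 0.83 and 1.62 (adjusted p = 0.118 and adjusted p = 0.0547). Mast cell and eosinophil genes rose in 2 of 9 in males, Kit (0.25) and Siglecf (0.31), and in none in females, where 0 of 9 fell. Of 7 platelet genes only Itgb3 changed, in males, and Pf4 was at 0.90 and 0.21 (adjusted p = 0.11 and adjusted p = 0.917). Of 8 smooth muscle genes 8 fell in males and 6 in females, with Smtn at −1.78 and −0.82 and Lmod1 at −2.35 and −1.43. Of 8 endothelial genes 4 fell in males and 0 in females, with Tek at −0.89 and −0.53 and Pecam1 at −0.48 and −0.29. Of 9 adipocyte genes none was called in either sex, with Lep at −0.50 and −0.59 and Cidea at −0.90 and −2.58. Of all genes, 9.67% rose and 9.98% fell in males, and 2.77% rose and 1.45% fell in females. Lists with no call, and the platelet list with only Itgb3, are thus close to the background.

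The response of the integrins was not shown to differ between the sexes. The difference of the PPE response, male minus female, was positive for all 9 genes on the deposited scale. It passed for none, where 0.541% of all genes were called (in either direction). It was largest for Itgam, at 0.80 with a 95% interval of −0.21 to 1.80 (adjusted p = 0.616), followed by Itgb2 at 0.51 (−0.40 to 1.42) and Itga4 at 0.44 (−0.28 to 1.15). For Itgal it was 0.26 (−0.44 to 0.97), for Itgax 0.16 (−0.44 to 0.75) and for Fermt3 0.23 (−0.25 to 0.72). Itgad, at 0.21 (0.02 to 0.40, adjusted p = 0.425 in limma), was the 1 gene of the 9 with an unadjusted p under 0.05. The sign turned for Itgax without female sham 1 (−0.04) and with array weights (−0.26). A positive sign was not particular to the integrins, as the pan-leukocyte genes had a median of 0.50 beside 0.26 for the 9 genes. Relative to the leukocyte mean, Itgam was at 0.27. Every other member was negative there, from −0.43 (Itgae) to −0.02 (Itgb2), and none was called.

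In sham aortae 8 of the 9 genes were called lower in males than in females on the deposited scale, where 69.6% of all genes were called lower and the median of all genes was −0.48. Once each array was centred on its median, only Itgae was called (−0.43 ± 0.08, adjusted p = 0.00101). The same gene alone was called after quantile normalization. Of 30142 genes, 8189 were called with centring (50.5% of them higher in males) and 9088 after quantile normalization (36.6% higher). So 1 call among the 9 genes is not above the background. The Itgae probe set was dim in sham arrays, at −0.04 to 0.63 from the array median, and sex and array processing cannot be told apart. The order of group means was the same for Itgb2 and for Itga4, from male sham (10.97 and 8.79) over female sham (11.96 and 9.42) and male PPE (12.76 and 10.59) to female PPE (13.24 and 10.79). On the centred scale the sham groups did not differ for Itgb2 (−0.49, 95% interval −1.24 to 0.26) or Itga4 (−0.12, −0.73 to 0.49) beyond their spread. Nor did the PPE groups for Itgb2 (0.07, −0.58 to 0.71) or Itga4 (0.36, −0.16 to 0.88). Itgam had its highest mean in male PPE (13.65), next to female PPE (13.59), with a centred difference of 0.61 (−0.10 to 1.31). Itgae was lower in males than in females after PPE too, at −0.28 ± 0.07 on the centred scale (adjusted p = 0.00494). There too, sex and array processing cannot be told apart. For Itgad after PPE the direction turned with the scaling, from −0.37 as deposited (adjusted p = 2.67e-05) to 0.18 centred (adjusted p = 0.0183), on a probe set near the array median.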

How the data were processed

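RNA of 1 aorta per array was measured on 19 arrays. The log2 intensities are those the authors deposited, made with the Transcriptome Analysis Console on an mm10 annotation per the submitters' processing notes. Its version, the background correction and the summarisation are not stated in what was used here. Symbols came from the platform annotation, updated through RefSeq, and the brightest probe set with 1 symbol was kept per gene, with no filter on dim genes. Groups came from the labels. A model of 4 group means was fitted to the 19 arrays (limma 3.58.1, R 4.3.3), two-sided, with Benjamini-Hochberg adjustment over 30142 genes and calls at an adjusted p below 0.05. It was tested on simulated data.

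Members, lists, motifs and the pan-leukocyte rescaling were chosen with earlier results of these data known. Named genes are the members, the genes of lowest p averaged over the sexes in each list (4 for ligands, activation and signalling, otherwise 2), 7 fixed genes (Spi1 was not measured) and the 5 likest to Itgb2. Fermt1, Fermt2, Flna, Ilk, Parvb, Itgb1, Epcam, Krt18 and the chromosome 7 neighbours were chosen after their values were seen. So were the uncalled markers Mrc1, Cd163, Mertk, Ly6g, Camp, Mpo, Zbtb46 and Batf3. Sequences are RefSeq's (GRCm38.p6). Alternatives changed the scaling, the probe set rule, the dim filter, the variance model, the arrays or the block. The block also drops from the estimate the arrays without a same-numbered partner.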

Additional observations from a re-analysis of the deposited data

Results flagged for a closer look

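Dixon's test was run in 165 groups of 4 to 7 arrays of the genes named by rule, not those chosen after their values were seen. In 10 of them 1 array lay far from the rest, which chance gives in about 1 of 20 groups. Among the leukocyte integrins this was Itgad, with male PPE 1 at 5.86 against 5.69 to 5.72 in the others. Among other integrin chains, Itga8 had female PPE 4 at 14.64 against 13.38 to 13.45, and Itgb3 had male sham 4 at 9.54 against 10.48 to 10.80. Male sham 4 also stood apart for the fat genes Cidea (12.35 against 5.92 to 6.76) and Lep (6.17 against 4.52 to 4.94), for the epithelial keratin gene Krt19 (5.57 against 5.09 to 5.22) and for Madcam1 (4.70 against 4.96 to 4.98). Male PPE 1 was high for Madcam1 (5.49 against 4.68 to 4.90), male PPE 2 for Lep (4.89 against 4.45 to 4.63) and male sham 3 for the eosinophil gene Siglecf (6.01 against 5.59 to 5.71).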

How the results depend on the processing

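In males the 9 genes kept their direction and call in all 252 values over the alternatives, and 9 were called without any 1 array. The count of all genes called in males was 4958 to 6365 without 1 array and 3535 with the replicate block. In females the 6 called members became 2 with the replicate block and 8 with array weights, 7 with only the female groups and 8 without male sham 4 and 5 and male PPE 1 together. They were 2 to 7 without 1 array, with 3 without female sham 1 and 2 without female sham 2. All genes called in females numbered 3951 with array weights, 1970 with only the female groups, 639 with the replicate block, 368 to 1613 without 1 array, and 2454 without male sham 4 and 5 and male PPE 1 together, an alternative added after the data were seen, against 1273 in the reported fit. The difference between the sexes called no member in any fit that gave it. All genes called for it numbered 274 with median centring, 260 with the filter on dim genes, 931 with array weights, 0 with the replicate block, 0 to 426 without 1 array and 79 without the 3 arrays, against 163. The signs that turned were −0.024 for Itgal with the replicate block, −0.255 for Itgax with array weights, −0.043 for Itgax without female sham 1 (up to 0.357 without 1 array, female sham 2) and −0.028 for Itgax without the 3 arrays. In sham aortae the 8 members lower in males became 1 with median centring, 1 with quantile normalization, 5 to 9 without 1 array (5 without female sham 1) and 5 without the 3 arrays. All genes called there numbered 8189, 9088 and 12520 with median centring, quantile normalization and the dim filter, and 19466 to 22135 without 1 array, against 21653. For PPE minus sham in males, 60.3% of called genes were higher after PPE with median centring and 49.2% as deposited. For PPE minus sham in females, 44.1% were higher after PPE with quantile normalization, against 65.6% as deposited. The cause of these changes was not tested, beyond fewer arrays or genes where the alternative removes them. The labels do not say that a replicate number marks a shared litter or day. Deviations of same-numbered arrays correlated at −0.32 to 0.24, and 2 of 6 female and 1 of 10 male arrays correlated best with their own number. This check on 3 female and 5 male pairs showed no clear pairing but could miss a weak one. Whether the numbers pair the mice is not settled. The block also takes arrays with no same-numbered partner out of the estimate (female PPE 4, male PPE 6 and 7), so it changed block and arrays together. Signal over background limits Itgad, which lay near the array median.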
